A study of Mus musculus with 9 samples.

Results

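Kinesins are motor proteins that walk along microtubules or take them apart, using ATP. The genes described here are all those whose name on the array began with Kif or Kifc and a digit: 35 gene names with 73 probes, of 27572 gene names and 41174 probes in all. They were sorted by known role into 11 mitotic kinesins, 17 transport kinesins, 6 with other roles and 1 unclassed name, Kifc5c. RNA came from freshly isolated mammary tumour cells that had been sorted for lack of green fluorescent protein. The treated cells (5 arrays) had received Fzd8-CRD, a Wnt inhibitor made of the part of Frizzled 8 to which Wnt proteins bind. The other 4 arrays held control cells. The labels name MMTV-Wnt-1 and MMTV-Her2 tumours for every array, so these models, whose transgenes are expressed from the promoter of mouse mammary tumour virus, could not be separated. The treatment protocol names the inhibitor even for the controls, so what they received is not known here, and the groups follow the treatment label of each array. Cy5 marked the tumour RNA and Cy3 a reference RNA, about whose origin the labels disagree.

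Mitotic kinesins build and position the spindle, move chromosomes and complete cell division, and their genes are switched on in dividing cells as the cycle nears mitosis. Transport kinesins carry vesicles, organelles and ciliary components and are made in dividing and resting cells alike, with several forms enriched in neurons. Mitotic kinesin RNA is therefore commonly read beside other proliferation markers. In bulk RNA, fewer cells of a type and less RNA per cell cannot be told apart.

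Of the 35 kinesins, 31 passed the filter on dim probes: 10 mitotic, 16 transport, 4 other and Kifc5c. Kif2b, Kif17, Kif9 and Kif27 did not pass. By limma, with Benjamini-Hochberg adjustment across 18211 genes, 4 of the 31 kinesins rose with Fzd8-CRD and 0 fell, against 6.6% of all genes that rose and 7.76% that fell. The risers were Kifc2, Kif5c, Kif7 and Kif18a, of which only Kif18a belongs to the mitotic class. At an unadjusted p under 0.05, 6 of 31 kinesins were higher and 3 lower, against 14.4% and 17.6% of all genes. Differences are in log2 units, control subtracted from Fzd8-CRD, and concern the ratio of sample to reference unless a dye is named. Their median was -0.50 over the 10 mitotic kinesins and 0.21 over the 16 transport kinesins, beside -0.07 over all genes. Below 0 lay 7 of 10 mitotic and 2 of 16 transport kinesins, beside 10370 of the 18211 genes. No test was made of these medians.

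**Figure D1:**
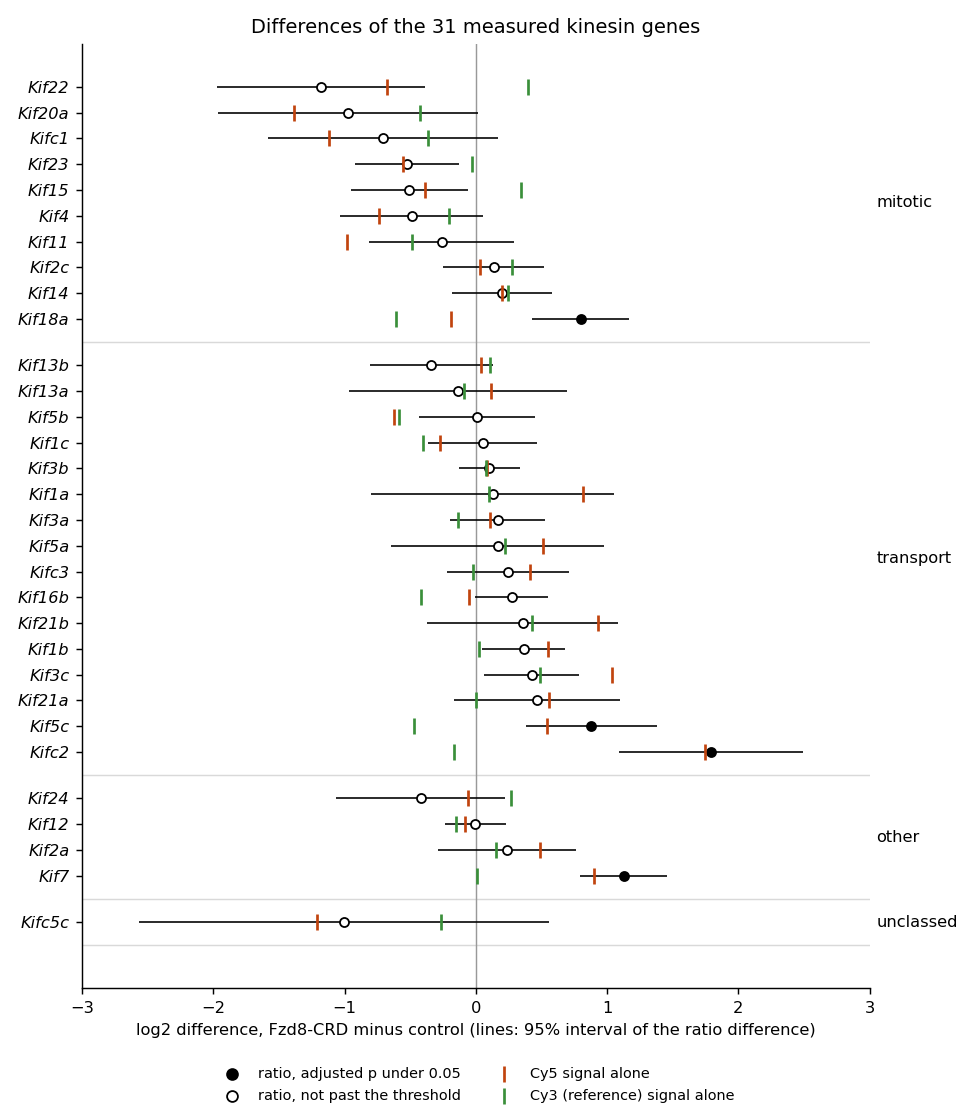
Difference of each of the 31 measured kinesin genes (rows, by class) between Fzd8-CRD and control arrays, in log2 units on the x axis. Circles with 95% intervals show the ratio difference, filled where the adjusted p was under 0.05, and ticks show the Cy5 and Cy3 signals alone. The 4 filled circles lie right of 0, and 7 of the 10 mitotic kinesins lie left of it.

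Several conditions of the measurement touch these results. The 4 controls were hybridised on a single slide, while the Fzd8-CRD samples were spread over 4 further slides that were scanned 367 or 378 days later, so slide and treatment cannot be told apart. The share of probes clearly above background in Cy5 was 52.5% to 60.0% on Fzd8-CRD arrays, against 63.8% to 70.8% on controls. The Cy3 signal of the reference alone was lower for 31.4% of genes and higher for 27.9%, and of the 31 kinesins 12 were lower and 10 higher in it. In the Cy5 signal alone 3 kinesins rose (Kifc2, Kif7 and Kif3c) and 2 fell (Kif11 and Kif5b), against 10.2% and 8.86% of all genes. Control replicate 2 stood apart, with correlations across genes of 0.618 to 0.737 with the other arrays and the highest lymphocyte, macrophage and erythroid marker medians. All 7 epithelial markers passed the filter, and 4 of them lay below 0, with a median of -0.26. By limma 1 of them, Krt5, rose and 0 fell, against 6.6% and 7.76% of all genes. At an unadjusted p under 0.05 they were 2 higher and 2 lower, against 14.4% and 17.6% of all genes. For Krt5 the Cy5 signal differed by 0.09 (adjusted p = 0.795) and the Cy3 signal by -0.79. All 7 endothelial markers fell, with array medians of -1.87 to -0.06 on Fzd8-CRD arrays against 0.88 to 1.496 on controls, and so did 3 of 4 erythroid markers. Their part in the kinesin differences was not tested.

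The 27 kinesins found in RefSeq's promoter table (GRCm38.p6) were searched for 3 short sequence elements. The letters TTTGAA, the core of the cell cycle homology region through which late-cycle genes are held silent in resting cells, occurred on either strand within 250 bases before to 50 after the start in 8 of 10 mitotic, 1 of 11 transport and 1 of 6 other kinesins, beside 17.9% of all 32851 promoters. A match beginning within 25 bases of the start, a distance chosen after the positions had been seen, was present in 6 of the 10 mitotic kinesins, 0 of 11 transport and 0 of 6 other kinesins, and in 2.7% of all promoters. CCAAT, the letters bound by the factor NF-Y, occurred in 7 of 10 mitotic, 3 of 11 transport and 2 of 6 other kinesins, against 37.4% of all promoters. GCGGGAA, an E2F-like element, occurred in 0 mitotic, 0 transport and 1 other kinesin, against 4.6% of promoters. These matches are letters and not measured binding, and genes of a class were counted whether or not they were measured or changed. The 6 mitotic kinesins with TTTGAA close to the start are shown first, from 70 bases before it through the first 30 transcribed bases, with each TTTGAA and CCAAT in capitals, read on either strand.
Kif22 (chr7:127042391-127042490, minus strand): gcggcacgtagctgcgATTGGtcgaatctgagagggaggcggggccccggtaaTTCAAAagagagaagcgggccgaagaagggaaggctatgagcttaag
Kif23 (chr9:61946770-61946869, minus strand): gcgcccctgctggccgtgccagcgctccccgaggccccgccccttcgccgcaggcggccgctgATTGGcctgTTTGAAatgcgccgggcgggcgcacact
Kif15 (chr9:122951011-122951110, plus strand): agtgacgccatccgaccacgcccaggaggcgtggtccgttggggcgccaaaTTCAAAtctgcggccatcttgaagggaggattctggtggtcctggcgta
Kif11 (chr19:37376312-37376411, plus strand): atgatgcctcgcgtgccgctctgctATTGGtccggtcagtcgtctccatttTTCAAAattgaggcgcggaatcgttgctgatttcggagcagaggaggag
Kif4 (chrX:100625995-100626094, plus strand): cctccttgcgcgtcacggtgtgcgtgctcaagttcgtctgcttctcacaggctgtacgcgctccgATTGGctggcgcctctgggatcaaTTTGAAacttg
Kifc1 (chr17:33890604-33890703, minus strand): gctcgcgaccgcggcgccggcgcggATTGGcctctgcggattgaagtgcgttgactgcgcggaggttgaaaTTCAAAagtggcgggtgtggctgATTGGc
Kif22, Kif15 and Kif11 carried the reverse form (TTCAAA) just before the start, and Kif23, Kif4 and Kifc1 carried the element in the first transcribed bases. In all but Kif15 a reversed CCAAT lay upstream of it in the same window. Kif18a, the mitotic kinesin that rose, held no TTTGAA in the searched stretch, and Kifc2 had no entry in the promoter table. A link between these letters and the direction of change was not tested. For comparison, the printed window of Kif3a, a ciliary transport motor, and of Kif5c and Kif7, which both rose, held no TTTGAA.
Kif3a (chr11:53567299-53567398, plus strand): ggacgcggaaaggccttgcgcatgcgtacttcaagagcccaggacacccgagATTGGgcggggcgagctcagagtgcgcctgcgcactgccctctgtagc
Kif5c (chr2:49619216-49619315, plus strand): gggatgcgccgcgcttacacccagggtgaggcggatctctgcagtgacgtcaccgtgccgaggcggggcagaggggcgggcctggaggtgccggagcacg
Kif7 (chr7:79715678-79715777, minus strand): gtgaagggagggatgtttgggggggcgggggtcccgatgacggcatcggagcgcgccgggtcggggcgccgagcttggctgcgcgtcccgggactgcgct

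None of the 4 measured mitotic kinesins described first, which act at the spindle midzone and in the final cut between daughter cells, passed the test, and their differences ran from -0.98 to 0.20. Kif20a, which brings the chromosomal passenger complex to the midzone, had log2 ratios of -2.23, -2.53, -3.52, -3.74 and -3.08 on Fzd8-CRD arrays against -3.32, -1.95, -1.46 and -1.46 on control arrays. Every Fzd8-CRD array lay below controls 2, 3 and 4, but control 1 lay among the Fzd8-CRD arrays. The difference was -0.98 (SE 0.44, adjusted p = 0.161). It was -1.39 in the Cy5 signal alone (adjusted p = 0.0514), with Cy3 at -0.43 (adjusted p = 1.03e-05). Kif23, the motor of the centralspindlin complex, had ratios of -1.82, -2.03, -2.08, -2.41 and -1.99 with Fzd8-CRD against -1.98, -1.57, -1.30 and -1.31 in controls, again with only control 1 inside the Fzd8-CRD range. Its difference was -0.53 (SE 0.18, adjusted p = 0.0744). Kif23 is measured by adjoining probes that each cross an exon junction in the annotated coordinates (mm8), shown here because they read next to each other in 1 transcript.
Kif23 upstream probe (chr9:61717932-61719052, minus strand): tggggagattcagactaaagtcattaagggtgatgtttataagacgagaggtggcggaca
Kif23 downstream probe (chr9:61717691-61717931, minus strand): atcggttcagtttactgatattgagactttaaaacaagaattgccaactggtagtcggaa
The upstream, brighter probe gave the -0.53 above, and the downstream probe gave -0.21 (SE 0.18, adjusted p = 0.429 in the fit over probes). Kif4, a chromosome-bound motor that works with Prc1 at the midzone, had ratios of -2.41, -2.75, -2.73, -3.15 and -2.66 with Fzd8-CRD against -3.02, -1.90, -2.02 and -2.07 in controls, a difference of -0.49 (SE 0.24, adjusted p = 0.197). Its other probe overlaps the first and gave 0.06, so probes that share the 20 bases printed next disagreed in direction.
Kif4 shared stretch (first 20 bases of the probe at chrX:96929505-96929565, plus strand): aaagaggaggaccttggctg
Kif14, which works with citron kinase in cytokinesis, lay at -1.05 ± 0.28 with Fzd8-CRD (SD, n = 5) and -1.25 ± 0.22 in controls (SD, n = 4), a difference of 0.20 (adjusted p = 0.435).

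Of the motors that shape the spindle and move chromosomes, Kif22 came nearest to the threshold. Kif22, a chromosome-arm motor, had ratios of -2.47, -2.43, -3.10, -3.62 and -3.37 on Fzd8-CRD arrays against -2.80, -1.65, -1.32 and -1.50 on controls. The groups overlapped only through control 1, and the difference of -1.18 (SE 0.35, 95% interval -1.97 to -0.39) had an adjusted p of 0.0523. Its Cy5 signal alone differed by -0.68 (adjusted p = 0.15) and its Cy3 signal by 0.40 (adjusted p = 0.00173), so the ratio difference drew on both dyes. Kifc1, a minus-end motor that bundles spindle poles, had ratios of -1.78, -1.97, -2.64, -2.69 and -2.15 with Fzd8-CRD against -2.75, -1.15, -1.59 and -0.66 in controls, a difference of -0.71 (SE 0.39, adjusted p = 0.239). Controls 2, 3 and 4 again lay above every Fzd8-CRD array. Another probe under the name Kifc1 gave -0.37, but its accession now belongs to Kifc5b, a near-identical copy, so the gene it reports is uncertain. Kif15, which helps Kif11 to push spindle poles apart, had ratios of -1.47, -2.16, -1.67, -2.04 and -1.47 with Fzd8-CRD against -1.60, -1.41, -0.97 and -1.03 in controls (difference -0.51, SE 0.20, adjusted p = 0.116). Kif11 itself, the main pole-separating motor, differed by -0.26 in ratio (adjusted p = 0.48) but was lower in Cy5 alone, by -0.98 (adjusted p = 0.00615), with Cy3 at -0.49 (adjusted p = 2.98e-05). Kif2c, which takes apart microtubule ends at centromeres, differed by 0.13 (95% interval -0.25 to 0.52).

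Kif18a, a motor that damps the swing of chromosomes before they part, was the mitotic kinesin that rose. Its ratios were -1.31, -1.69, -1.61, -1.71 and -1.02 on Fzd8-CRD arrays against -2.40, -2.10, -2.36 and -2.21 on controls. All 5 Fzd8-CRD arrays lay above all 4 controls, and the difference was 0.80 (SE 0.16, adjusted p = 0.0148). Kif18a was well above background in Cy5 on 2 of 5 Fzd8-CRD arrays and 4 of 4 controls. Its Cy5 signal differed by -0.19 (adjusted p = 0.352) and its Cy3 signal by -0.61 (adjusted p = 3.76e-07), so the higher ratio stood beside a lower reference signal and no higher sample signal. With the scanner's own log ratio the difference was -0.48 (adjusted p = 0.593). Kif20b, which is outside the name rule because the array calls it by an older name, showed the same layout, with a ratio difference of 0.75 (adjusted p = 0.027), Cy5 at -0.11 and Cy3 at -0.42. The central 30 bases of the Kif18a probe (mm8 coordinates of the whole probe) are shown as the only sequence behind this call, since its other probe was not above background on any array.
Kif18a (chr2:109142098-109142157, plus strand): tttagaaatgtatttcaagtctgggaaaga

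**Figure D2:**
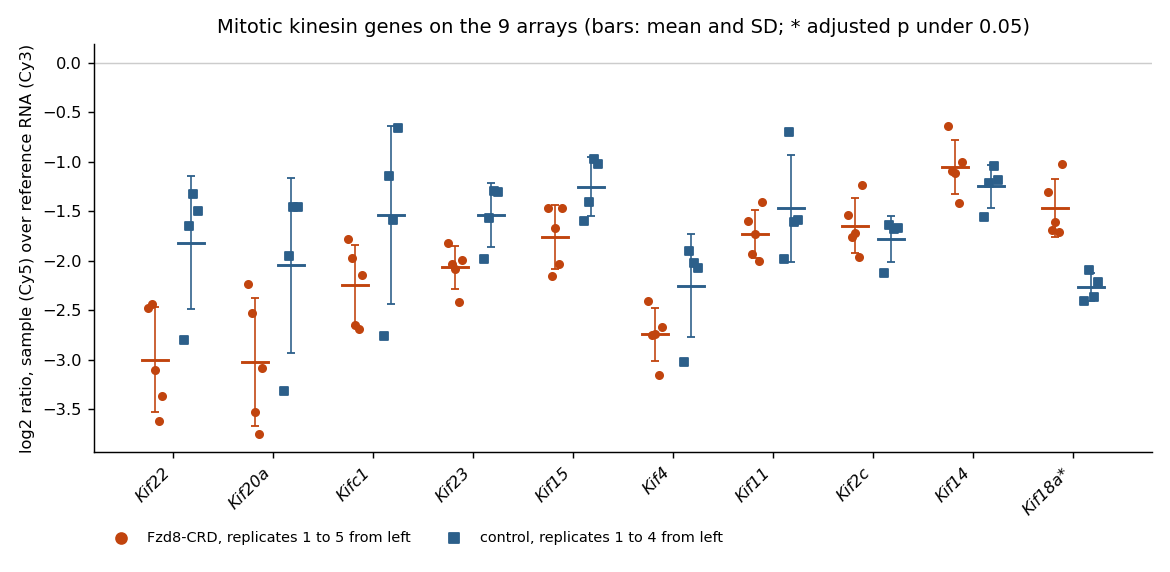
Log2 ratio of sample over reference (y axis) of the 10 measured mitotic kinesins on each array, with Fzd8-CRD circles left of control squares, replicates in order, and bars for mean and SD. Control replicate 1 is the lowest control for all 10 genes, Kif18a included, and lies within the Fzd8-CRD range or below it. Kif18a is the gene whose groups do not overlap.

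Control 1 also stood apart in the median of the class. The median of the 10 mitotic kinesins, each taken relative to its mean over arrays, was 0.14, -0.05, -0.17, -0.54 and -0.04 on Fzd8-CRD arrays against -0.42, 0.44, 0.42 and 0.48 on controls. Controls 2, 3 and 4 lay above every Fzd8-CRD array, and control 1 lay below all but Fzd8-CRD replicate 4. Without control replicate 1, 5 mitotic kinesins fell (Kif22 at -1.51, Kif20a at -1.40, Kifc1 at -1.12, Kif4 at -0.75 and Kif23 at -0.68, adjusted p 0.0158 to 0.0352) and 1 rose, against 7.56% and 5.77% of all genes in that fit, and the class median was -0.65. No label singles out control 1, and the result with all 9 arrays remains 0 fallen. Control 1 was also the lowest control in the fibroblast markers, whose array medians were 0.48, -0.29, -1.26, -1.23 and -0.53 on Fzd8-CRD arrays against -1.25, 2.29, 1.24 and 0.76 on controls. The median difference of these 7 markers was -1.21. In limma 0 of them fell and 0 rose, against 7.76% and 6.6% of all genes. At an unadjusted p under 0.05 these markers were 2 lower and 0 higher, against 17.6% and 14.4% of all genes. Their part in the mitotic kinesin values was not tested.

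**Figure D3:**
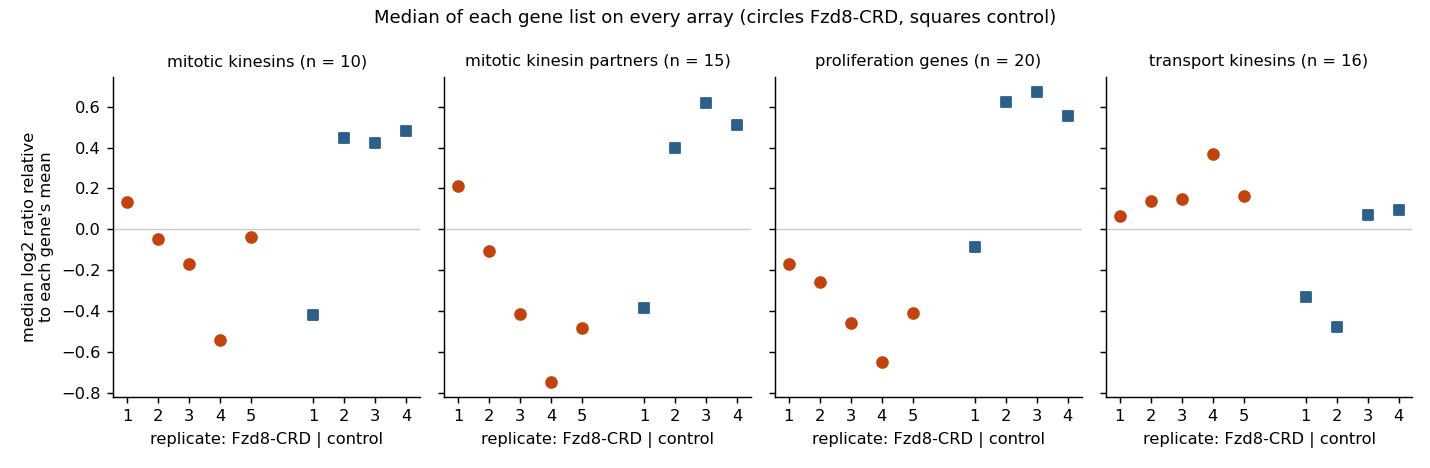
Median log2 ratio, relative to each gene's mean over arrays (y axis), of mitotic kinesins, mitotic kinesin partners, proliferation genes and transport kinesins on every array (x axis; circles Fzd8-CRD, squares control). Control replicate 1 lies at -0.42, -0.39 and -0.09 in the first 3 panels, below the other controls at 0.40 to 0.67, and in proliferation genes it still lies above every Fzd8-CRD array.

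Of 15 measured genes that work with the mitotic kinesins, 13 lay below 0, with a median of -0.70. Of these 15 partners 3 fell and 1 rose, against 7.76% and 6.6% of all genes. At an unadjusted p under 0.05 in limma 9 were lower and 2 higher, against 17.6% and 14.4% of all genes. Prc1, the midzone bundler that guides Kif4, fell (-1.46, SE 0.28, adjusted p = 0.0115). So did Ect2, which the centralspindlin complex brings to the cleavage plane (-1.28, SE 0.22, adjusted p = 0.00814), and Birc5, of the passenger complex (-1.33, SE 0.38, adjusted p = 0.0464). Ect2 ratios were -2.12, -2.51, -2.42, -2.81 and -2.26 with Fzd8-CRD against -1.55, -1.48, -0.73 and -0.80 in controls, so that here control 1 also lay above every Fzd8-CRD array. Kifbp, which holds several kinesins off microtubules, rose by 0.81 (SE 0.12, adjusted p = 0.0053). Cenpe, the centromere kinesin with no Kif name, averaged -2.70 ± 0.60 with Fzd8-CRD (SD, n = 5) and -1.62 ± 0.88 in controls (SD, n = 4), a difference of -1.07 (adjusted p = 0.119). Of 20 proliferation genes 12 fell and 0 rose, against 7.76% and 6.6% of all genes, and the list's median was -0.91. At an unadjusted p under 0.05 by limma 15 proliferation genes were lower and 0 higher (17.6% and 14.4% of all genes). Those with the smallest p serve DNA replication: Mcm3 (-1.49, adjusted p = 0.00563), Rrm2 (-0.98, adjusted p = 0.00776), Pcna (-0.79, adjusted p = 0.00785) and Mcm2 (-0.99, adjusted p = 0.011). Top2a fell by 0.77 (adjusted p = 0.042), and Mki67 differed by -0.27 (SE 0.41, adjusted p = 0.67).

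Among transport kinesins 2 of 16 rose, Kifc2 and Kif5c, and 0 fell, against 6.6% and 7.76% of all genes. At an unadjusted p under 0.05 in limma 4 were higher and 0 lower (14.4% and 17.6% of all genes). Kifc2, a motor that has its head at the C-terminal end and is best known from neurons, had ratios of 1.64, 2.002, 0.90, 1.20 and 1.43 on Fzd8-CRD arrays against -0.35, -1.24, -0.03 and 0.20 on controls. The groups did not overlap, and the difference of 1.79 (SE 0.31, adjusted p = 0.0089) was the largest of the 31 kinesins. It was borne by the sample dye: Cy5 alone rose by 1.74 (adjusted p = 0.00654), and Cy3 differed by -0.17. Kif5c, a kinesin-1 heavy chain enriched in neurons, had ratios of 0.81, 1.12, 0.18, 0.77 and 0.78 with Fzd8-CRD against -0.42, -0.48, -0.01 and 0.32 in controls. Fzd8-CRD replicate 3 lay below control replicate 4, and the difference was 0.88 (SE 0.22, adjusted p = 0.0301). In Cy5 alone it was 0.54 (adjusted p = 0.117) and in Cy3 -0.47 (adjusted p = 1.18e-05), and another Kif5c probe gave 0.22 (adjusted p = 0.227 in the fit over probes). Kif5c passed the threshold in 2 of the 9 fits that left out 1 array. The central 30 bases of the probes that made these calls follow, with the coordinates of the whole probes (mm8).
Kifc2 (chr15:76495330-76495399, plus strand): cactctacaggctaagctcgcgattggcca
Kif5c (chr2:49596605-49596664, plus strand): tgagatagaaatgtccccaaagatctggaa

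The other heavy chains of kinesin-1, the general carrier of mitochondria and vesicles, did not pass. Kif5b, made in most cells, lay at -0.09 ± 0.37 with Fzd8-CRD (SD, n = 5) and -0.10 ± 0.21 in controls (SD, n = 4). Its ratio difference of 0.01 (95% interval -0.43 to 0.45) stood over lower signals in both dyes, -0.63 in Cy5 (adjusted p = 0.0375) and -0.58 in Cy3 (adjusted p = 2.24e-06). Kif5a, the neuronal form, differed by 0.17, with control 2 at -1.45 and every other array between -0.40 and 0.40. Of the kinesin-2 motors that build cilia, Kif3a differed by 0.17 and Kif3b by 0.10 (95% interval -0.13 to 0.33). Kif3c, the neuronal member, had ratios of 0.41, 0.53, 0.46, 0.77 and 0.57 with Fzd8-CRD against -0.01, -0.27, 0.38 and 0.39 in controls. These groups did not overlap, though narrowly, and the difference of 0.43 (SE 0.16) had an adjusted p of 0.103. Of all genes, 7.9% lay higher with no overlap and 11.7% lower, and of the 31 kinesins 4 lay higher (Kifc2, Kif7, Kif18a and Kif3c) and 0 lower. In Cy5 alone Kif3c rose by 1.04 (adjusted p = 0.0121), and its Cy3 signal was also higher, by 0.49 (adjusted p = 3.13e-05). The other kept Kif3c probe gave a ratio difference of -0.0085 (adjusted p = 0.964 in the fit over probes).

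Kinesin-3 motors, which carry synaptic and endosomal vesicles, spread around 0. Kif1b had ratios of 0.98, 0.84, 1.18, 1.18 and 1.09 with Fzd8-CRD against 0.75, 0.33, 0.81 and 0.87 in controls, a difference of 0.36 (SE 0.14, adjusted p = 0.114) that its 4 probes gave at 0.17 to 0.38. Kif16b, an early endosome motor, had ratios of 0.24, 0.02, -0.06, -0.17 and 0.07 with Fzd8-CRD against -0.40, -0.35, -0.19 and -0.07 in controls (difference 0.27, adjusted p = 0.163). In both genes the highest control reached into the Fzd8-CRD range. Kif13b, which carries membrane cargo to cell edges, had ratios of 0.27, 0.14, 0.64, 0.24 and 0.14 with Fzd8-CRD against 1.23, 0.17, 0.60 and 0.50 in controls, the lowest difference of the class at -0.34 (adjusted p = 0.289). Kif1a, Kif1c and Kif13a differed by 0.13, 0.05 and -0.13. Of the kinesin-4 motors that slow microtubule growth, Kif21a had ratios of -0.40, -0.39, 0.51, 0.28 and 0.10 with Fzd8-CRD against -0.55, -1.15, -0.01 and -0.06 in controls (difference 0.47, adjusted p = 0.28). Kif21b had ratios of -0.39, -0.37, -1.08, -0.58 and -0.02 with Fzd8-CRD against -1.77, -1.01, -0.35 and -0.24 in controls (difference 0.36, adjusted p = 0.466). Both groups were wide in these motors and overlapped. Kifc3, a minus-end motor, differed by 0.25.

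**Figure D4:**
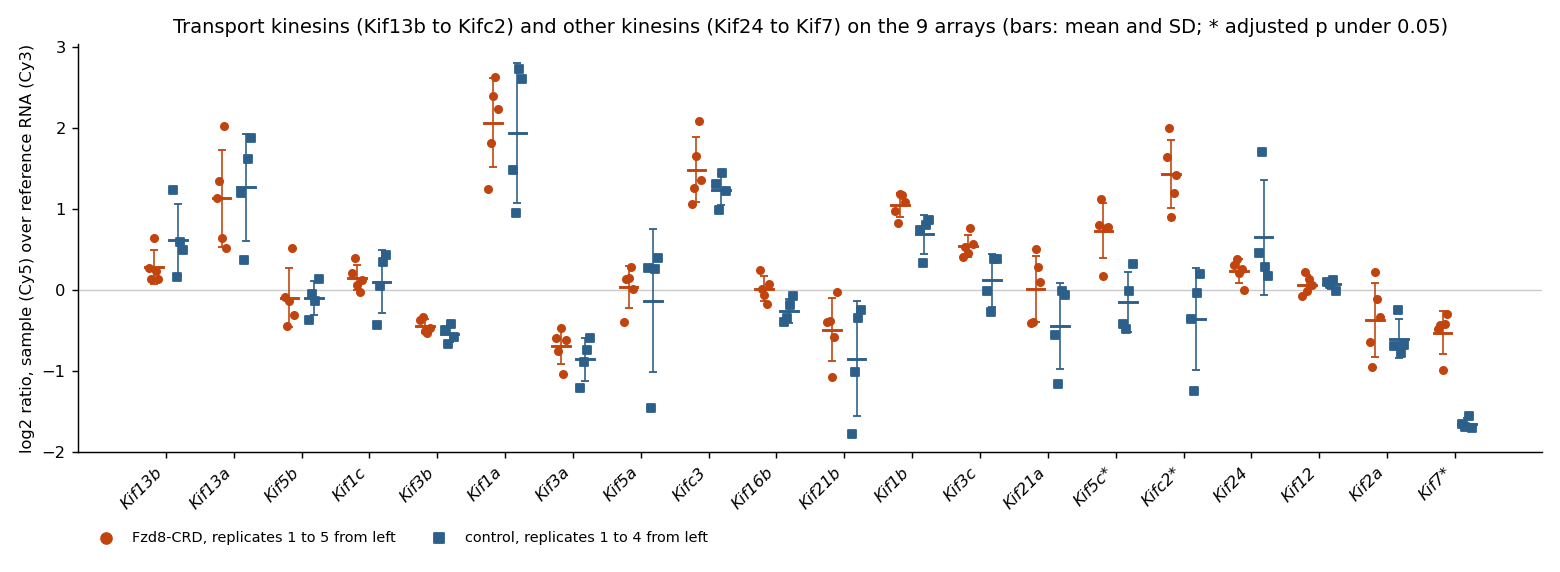
Log2 ratio of sample over reference (y axis) of the 16 measured transport kinesins and the 4 measured other kinesins on each array, drawn as Fzd8-CRD circles left of control squares with mean and SD. Kifc2 and Kif7 stand clear of their controls, Kif5c and Kif3c nearly or narrowly so, and the remaining genes overlap.

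Array medians of the 16 transport kinesins were 0.07, 0.14, 0.15, 0.37 and 0.16 with Fzd8-CRD against -0.33, -0.48, 0.07 and 0.10 in controls. Controls 1 and 2 were low, and controls 3 and 4 lay beside the Fzd8-CRD arrays. The mitotic median minus the transport median was 0.07, -0.19, -0.32, -0.91 and -0.20 on Fzd8-CRD arrays against -0.09, 0.92, 0.35 and 0.39 on controls, with control 1 the array that overlapped. Of 18 measured cargo adaptors and other transport partners 2 rose and 1 fell, against 6.6% and 7.76% of all genes. Their median was -0.00. Mapk8ip3, an adaptor of kinesin-1, rose by 1.37 (SE 0.28, adjusted p = 0.0139), and Trak1, which ties kinesin-1 to mitochondria, by 0.76 (SE 0.10, adjusted p = 0.00435). For Mapk8ip3 the Cy5 signal differed by 0.92 (adjusted p = 0.0609) and the Cy3 signal by -0.50. For Trak1 the Cy5 signal differed by 0.15 and the Cy3 signal by -0.76. Rhot1, the mitochondrial anchor of that complex, fell by 0.66 (SE 0.18, adjusted p = 0.0382). Its Cy5 signal differed by -0.32 (adjusted p = 0.308) and its Cy3 signal by 0.23. Dynein is the motor that runs the opposite way. Of its 21 measured subunits and regulators 2 rose and 1 fell, beside the same shares of all genes. Dctn4 (0.64) and Dync1h1 (0.61) rose and Dynll2 (-0.39) fell (adjusted p 0.0119 to 0.0391), and the median of the list was -0.20. Of 7 measured neuronal markers 0 passed the test in limma. At an unadjusted p under 0.05 they were 1 higher and 0 lower, against 14.4% and 17.6% of all genes. In Cy5 alone 2 rose, Tubb3 (1.10) and Syn1 (1.45), against 10.2% of all genes. Their Cy3 signals were also higher, by 0.97 and 1.28, and their ratios differed by -0.04 and 0.01.

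Kif7, a ciliary kinesin of the Hedgehog pathway that orders the tip of the cilium, had the narrowest error of the 4 risers. Its ratios were -0.48, -0.43, -0.99, -0.42 and -0.30 on Fzd8-CRD arrays against -1.65, -1.69, -1.56 and -1.70 on controls. The controls lay close together and below every Fzd8-CRD array, and the difference was 1.13 (SE 0.15, 95% interval 0.79 to 1.46, adjusted p = 0.00423). Cy5 alone rose by 0.90 (adjusted p = 0.00897) while Cy3 differed by 0.01. Kif7 has a single probe, whose central 30 bases are printed with the coordinates of the whole probe (mm8).
Kif7 (chr7:79571915-79571974, minus strand): agtctcatctttacaccaactggagtccga
Kif24, which restrains cilium formation, had ratios of 0.31, 0.39, 0.21, 0.26 and 0.00 with Fzd8-CRD against 0.46, 1.71, 0.28 and 0.17 in controls, so that its difference of -0.42 (adjusted p = 0.334) rested on control 2. Kif2a, a microtubule depolymerase, had ratios of -0.64, -0.95, 0.23, -0.11 and -0.33 with Fzd8-CRD against -0.69, -0.24, -0.78 and -0.68 in controls (difference 0.24, adjusted p = 0.505). Kif12 was dim and close to 0 on every array, from -0.07 to 0.22 with Fzd8-CRD and -0.00 to 0.12 in controls. The unclassed Kifc5c, now annotated as a pseudogene of the Kifc1 family, did not stand well above background on any of the 5 Fzd8-CRD arrays. Its ratios were -0.07, -0.32, -0.07, 0.02 and -0.13 with Fzd8-CRD against 0.08, 3.64, -0.06 and -0.10 in controls, so 1 array, control 2, set the difference of -1.004 (SE 0.70, adjusted p = 0.34). Without control 2 the difference was -0.09, and the other 3 controls lay between -0.10 and 0.08. The mean normalized Cy5 signal, another scale than the ratio, was 6.36 in log2 on Fzd8-CRD arrays against 7.57 on controls, at least 2.29-fold higher in controls. That bound rests on control 2 and is open to dye bias. The other kept Kifc5c probe gave -0.09 (adjusted p = 0.537 in the fit over probes), with control 2 at -0.12. Its bound was 1.42-fold, also higher in controls. The high value of control 2 was thus seen with the brighter probe only.

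Where a kinesin had more than 1 kept probe, as 18 did, the probes did not always agree. In the fit over probes 4 of the 55 kept kinesin probes rose and 0 fell, against 6.8% and 7.86% of all probes. Of 32 pairs of kept probes of the same gene, 8 lay on opposite sides of 0, in Kif13a, Kif1c, Kif3c, Kif4 and Kif5b, and 2 pairs shared a stretch of 15 bases or more. The 4 risers rested on 1 kept probe each in Kifc2, Kif7 and Kif18a, and on the brighter of its kept probes in Kif5c. The probe used for Kif1c carries another name in the control files.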

How the data were processed

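Expression was read on 9 dual-colour Agilent mouse arrays, grouped by the treatment label. Replicate numbers follow accession order and pair no arrays. Spot intensity values (foreground means and background medians of both dyes) and a background-corrected, dye-normalized log10 ratio were written, per the file headers, by version 9.5.3.1 of Agilent's Feature Extraction. A ratio on the linear scale fills the authors' deposited series values. Log2 ratios were computed here from the deposited intensities: normexp background correction (offset 50) and loess within arrays in limma 3.58.1 (R 4.3.3, with version 1.17.8 of data.table), control spots without weight and outlier spots left out. Spots of a probe were averaged. A probe was kept where its Cy5 signal was well above background on 4 arrays or more (26722 of 41174, 55 of 73 kinesin probes), and the brightest kept probe stood for each of 18211 genes. The 2 groups were set against each other in limma with Benjamini-Hochberg adjustment and a threshold of 0.05, and likewise for each dye alone after quantile normalization. The offset understates differences of dim genes. The number of arrays limits the precision. The procedure was tested on simulated data.

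Members, classes, partner lists and motifs were chosen with earlier results of these data known. By rule, array values are given for kinesins past the threshold and up to 6 more per class with the largest absolute difference, and, of each partner list, up to 4 members past it, plus Mki67, Top2a and Cenpe. The series describes its arrays as biological replicates, and the main fit counted each array as independent. Correlation across genes was highest between replicates 1 and 2 for Fzd8-CRD (0.976) and between replicates 3 and 4 for controls (0.979). Whether the arrays of such a pair share a tumour was not tested. Probe coordinates are those of the Fzd8-CRD files (mm8; the control files use mm7); exon and UTR annotation was not used here. Alternatives covered background correction, the scanner's log ratio, the deposited table, centring, scaling, Cy5 alone, dim-probe filters, the mean of probes, array weights, slide or scan day as a random block, averaging the closest pair of each group, and leaving out each array.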

Additional observations from a re-analysis of the deposited data

Results flagged for a closer look

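In 68 sets of 1 group each (31 genes and 3 class medians, in both groups), 7 values stood far from the rest of their group. Chance alone gives about 1 in 20 groups, but these sets share the same 9 arrays and are not independent. Control replicate 1 was the low array in 3 of them: its mitotic kinesin median was -0.42 against 0.42 to 0.48 in the other controls, its Kif4 ratio -3.02 against -2.07 to -1.90, and its Kif2c ratio -2.13 against -1.68 to -1.64. Control replicate 2 was far from the other controls in Kifc5c (3.64 against -0.10 to 0.08) and in Kif5a (-1.45 against 0.27 to 0.40). The other kept Kifc5c probe read -0.12 on control replicate 2. Fzd8-CRD replicate 3 was low in Kif7 (-0.99 against -0.48 to -0.30 on the other Fzd8-CRD arrays) and high in Kif13b (0.64 against 0.14 to 0.27). The Kif7 array still lay above every control. What sets these arrays apart was not tested.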

How the results depend on the processing

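No paired analysis was possible because replicate numbers were given in accession order. Kifc2 rose past the threshold under all 23 alternatives and Kif7 under 22 (not with scaling between arrays), against 13 of 23 for Kif5c and 15 of the 22 that measured Kif18a. The count of mitotic kinesins that fell, 0 as reported, was 3 with the scanner's ratio, with the deposited table or with slide as a random block, 2 with no background correction, 4 with scan day as a random block, 5 with array weights, 1 with scaling, Cy5 alone or the filter on all arrays, and 0 to 5 when 1 array was left out (5 without control replicate 1). The count that rose, 1, was 0 with the scanner's ratio or the deposited table, no background correction, median centring, scaling, Cy5 alone, the filter on all arrays or closest pairs averaged, and 1 to 1 without 1 array. Transport kinesins that rose, 2 as reported, were 3 with the scanner's ratio or the deposited table, where Kif1a joined Kif5c and Kifc2. They were 4 with either random block, 1 with median centring or closest pairs averaged, and 1 to 2 without 1 array. Calls over all genes also dropped with median centring (309 rose, 305 fell), closest pairs averaged (131 and 223) and scaling (775 and 851). Fewer kinesin calls under these 3 settings are therefore not particular to kinesins. In Cy5 alone 1 transport kinesin fell (Kif5b, -0.63, adjusted p = 0.0375). The mitotic median, -0.50 as reported and below 0 under all 23 alternatives, was -0.32 with the mean of a gene's probes, -1.01 with the scanner's ratio and the deposited table, -1.27 with scaling and -0.65 to -0.41 without 1 array. The transport median was 0.50 with the scanner's ratio and the deposited table, 0.46 in Cy5 alone, -0.00997 with array weights (which reversed it) and 0.16 to 0.34 without 1 array. The mitotic minus the transport median was -0.48 with the mean of a gene's probes, -1.51 with the scanner's ratio, the deposited table or scaling, and -0.88 to -0.60 without 1 array. Kif18a turned to -0.48 with the scanner's ratio and the deposited table and to -0.19 in Cy5 alone; causes were not tested. Over all genes 1552 rose and 1215 fell with the scanner's ratio, 1534 and 1151 with the deposited table, 1327 and 1359 with no background correction, 3105 and 3814 with array weights, 2472 and 3031 with the slide block (correlation -0.17) and 2510 and 3173 with the scan day block (correlation -0.12), against 1202 and 1414 as reported. Of the single-gene differences under alternatives, 603 kept direction and side of the threshold, 35 newly passed, 15 no longer passed and 54, in 16 genes, changed sign, 50 of them past the threshold under neither setting. Besides Kif18a and Kif5b in Cy5 alone, those were, with the scanner's ratio and the deposited table alike, Kif13a (0.53), Kif13b (0.0398), Kif14 (-0.20), Kif2c (-0.55) and Kif3b (-0.0242); with no background correction, Kif13a (0.0087), Kif14 (-0.0344), Kif2c (-0.17) and Kif3b (-0.0049); with scaling, Kif12 (0.0177), Kif13a (0.25), Kif14 (-0.33), Kif2c (-0.59), Kif3a (-0.17), Kif3b (-0.14) and Kif5b (-0.0726). In Cy5 alone they were Kif13a (0.12), Kif13b (0.0370), Kif16b (-0.0540) and Kif1c (-0.27), with array weights Kif1a (-0.72), Kif1c (-0.15), Kif21a (-0.0163), Kif21b (-0.0549), Kif5a (-0.32), Kif5b (-0.0298) and Kifc3 (-0.0036), with the mean of probes Kif1c (-0.0732) and Kif5b (-0.16), and with median centring Kif5b (-0.0168). Without 1 array the sign changed for Kif12 (-0.0426 to 0.0301), Kif13a (-0.43 to 0.0703), Kif1a (-0.20 to 0.39), Kif1c (-0.13 to 0.16), Kif5a (-0.27 to 0.34) and Kif5b (-0.14 to 0.10). Dim mitotic probes limit these values, with 6 of 10 above background on all arrays.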
